A study of Caenorhabditis elegans with 3 samples.

Results

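The vacuolar H+-ATPase (V-ATPase) membrane sector, V0, was followed in *Caenorhabditis elegans* through 9 genes: *vha-1*, *vha-2* and *vha-3* for the c subunit, *vha-4* for c″, *vha-16* for d, and *vha-5*, *vha-6*, *vha-7* and *unc-32* for the a subunit. They were chosen by gene name, with their ratios on these same arrays already known, so those ratios are given below as a description and support nothing by themselves. Of the 9 genes, 7 had a probe listed under their symbol, 8 probes in all, and each of the 7 had a value on all 3 arrays, among 14936 named genes and 19075 features in all. *vha-3* and *vha-16* had no probe listed under their names and were not analysed here.

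RNA of 3 mid-L3 preps of hermaphrodites, labelled TP01 (a code the labels do not expand), was hybridised on 1 two-colour array per prep beside one wild-type reference RNA. The labels call the reference mixed and do not say what went into it, and they give no strain, no genotype for the mid-L3 animals, no age in hours and no dye. L3 larvae have 1 more larval stage ahead, their germline is still growing and no oocytes have formed. The preps are numbered separately, but nothing says that they came from separate cultures, so errors and p-values measure the spread between these preps, which may be technical. Since each prep is RNA of whole animals, fewer cells of a type and less RNA per cell cannot be told apart.

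The V-ATPase pumps protons into lysosomes, endosomes and secretory vesicles, and across some plasma membranes. Its V1 sector in the cytosol hydrolyses ATP and turns a rotor, and the V0 sector in the membrane carries the protons. Within V0 a ring of proteolipids (c and c″) rotates against the a subunit, which holds the proton paths and helps to set in which membrane the pump resides, while d joins the ring to the V1 stalk. In worms the pump is known for work in the excretory canal cell, the intestine, the epidermis and neurons, and the 4 a-subunit genes are known for different sites of use.

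Each value is a log2 ratio of the 2 channels, centred on the median of its array, with the sign as deposited. It is a difference between the channels for one gene, not a level, and levels of different genes were not compared. Which channel is the numerator is not stated in the labels, which write mid-L3 before the reference. The 30 major sperm protein genes, products of sperm formation, had medians of -2.53, -2.15 and -2.69 in preps 1, 2 and 3, and 12 oocyte and eggshell genes had -2.95, -2.51 and -2.84. The sperm genes ran from *msp-33* at -4.51 ± 0.20 to *msp-38* at 0.09 ± 0.43, and the oocyte and eggshell genes from *perm-2* at -4.05 ± 0.34 to *egg-1* at -0.00268 ± 0.16. As mid-L3 hermaphrodites hold no oocytes, mid-L3 over reference is the likely direction on that basis and the order of the labels, and the results below are given as positive or negative ratios. Spot brightness was not among the values used here, and the number of arrays limits the precision.

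The V0 genes did not share one ratio. The gene of the intestinal a subunit, *vha-6*, stood highest at 2.34 ± 0.60 (mean ± SD, n = 3, as for all errors here), a 5.05-fold difference. *vha-4* followed at 1.24 ± 0.26, a 2.35-fold difference, and *vha-2* at 0.79 ± 0.23, a 1.73-fold difference. The other 4 genes had means between 0.07 and 0.36. Of the 7 genes, 3 had positive ratios past the threshold (limma, Benjamini-Hochberg adjusted p under 0.05 over all features), where 13.5% of all features did, and 0 had negative ones, where 13.6% of all features did. At an unadjusted p under 0.05 in limma the negative count was also 0, beside 3442 of all 19075 features. The median of the 7 means was 0.36, beside 0.01 over all features. Values were positive on all 3 arrays in 5 of the 7 genes and in 27.2% of all features.

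**Figure D1:**
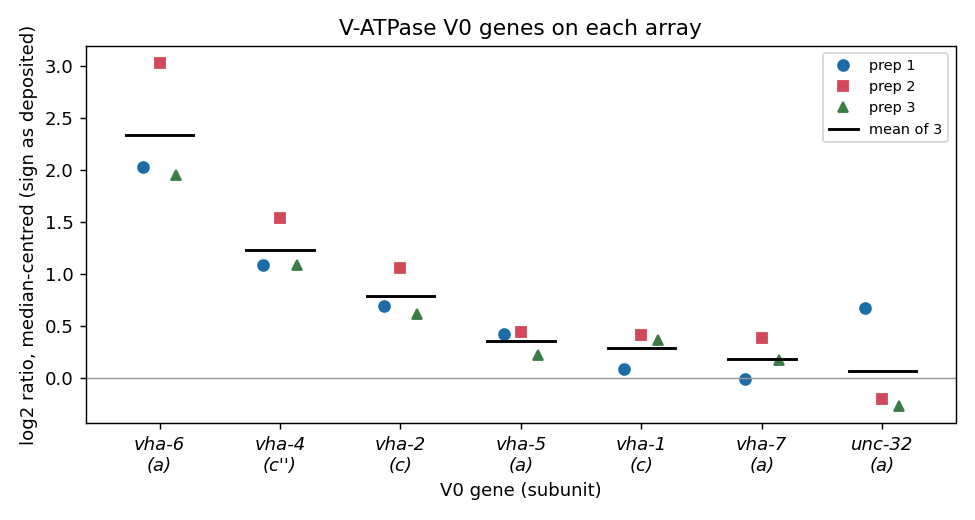
Centred log2 ratios (vertical axis, sign as deposited) of the 7 V0 genes with a probe, ordered by mean and labelled with their subunit; coloured points are the 3 preps and black bars their means. *vha-6* lies above the other V0 genes on each array, and *unc-32* is positive in prep 1 and negative in preps 2 and 3.

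Among the a-subunit genes, *vha-6* stood apart from its 3 paralogues on every array. *vha-6* encodes the a subunit of the apical membrane of the intestine, where it is known to be needed to acidify the gut lumen. Its ratios were 2.03, 3.03 and 1.95 in preps 1, 2 and 3, at percentiles of 98.7, 99.6 and 99.0 among all features. All 3 preps were high and prep 2 was the highest. *vha-6* exceeded *vha-5* by 1.98 ± 0.53, *vha-7* by 2.15 ± 0.44 and *unc-32* by 2.27 ± 0.94, and its values did not overlap with those of any of them.

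*vha-6* was also the V0 gene measured by more than 1 probe, and its 2 probes gave similar ratios. The first probe read 2.20, 3.02 and 1.86 in preps 1, 2 and 3, and the second 1.86, 3.04 and 2.04. The probe means were 2.36 and 2.31. The probes differed by 0.34, 0.02 and 0.18 on the 3 arrays. Over 408 genes with 2 probes the median difference was 0.29, 0.43 and 0.20. Prep 1 lay above that median, prep 3 near it and prep 2 below it. With the sector centring described below, the first probe read 2.26, 2.41 and 1.65 and the second 2.00, 2.73 and 1.86. The close match in prep 2 was then gone. The higher value of prep 2 was present at both spots with either centring.

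*vha-5* encodes the a subunit known from the excretory canal cell and the epidermis, where it takes part in apical secretion. Its ratios were 0.42, 0.44 and 0.22, a mean of 0.36 ± 0.12. All 3 values were positive and close together, with the smallest SD of the 7 genes. The neighbouring gene *F35H10.10* overlaps *vha-5* in the RefSeq table, so signal at one spot could come from both if its probe covers the overlap. *F35H10.10* had ratios of 1.39, 0.65 and 0.48, above *vha-5* on each array.

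*vha-7* encodes the a subunit known from the epidermis and the adult uterus. It had ratios of -0.01, 0.38 and 0.18, a mean of 0.18 ± 0.20. Prep 1 lay at the centre of the array and the other preps slightly above it.

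*unc-32* encodes an a subunit known from the nervous system, where mutants have uncoordinated movement. Its ratios were 0.67, -0.20 and -0.27, a mean of 0.07 ± 0.52. With each array centred on its median, prep 1 alone was positive. Without that prep the mean was -0.23, so the sign of *unc-32* rests on it with this centring. With the sector centring described below the values were 0.80, 0.11 and -0.23, with prep 2 positive too. The SD of *unc-32* was larger than in 84.8% of features, while those of the other single-probe V0 genes were below the median of all features, 0.29.

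The 3 proteolipid genes with a probe differed in ratio. *vha-4*, the gene of the larger c″ proteolipid, had ratios of 1.08, 1.54 and 1.08, at percentiles of 94.4, 95.6 and 95.1. *vha-2*, a c gene whose protein is identical to that of *vha-3*, had 0.70, 1.06 and 0.62. *vha-1*, the other c gene with a probe, had 0.09, 0.41 and 0.36. With each array centred on its median, the 3 sets of values did not overlap, and the order *vha-4*, *vha-2*, *vha-1* held on each array.

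*vha-4* exceeded *vha-2* by 0.39, 0.48 and 0.47, a difference of 0.45 ± 0.05. With the sector centring described below it was 0.20, -0.17 and 0.23, or 0.09 ± 0.22, with the order turned in prep 2. *vha-2* exceeded *vha-1* by 0.61, 0.64 and 0.25, or 0.50 ± 0.22. Because *vha-3* closely resembles *vha-2*, RNA of *vha-3* may also bind the *vha-2* spot, and the ratio of *vha-2* is uncertain to that extent.

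In the order of means, *vha-6*, *vha-4* and *vha-2* were each separated from the next gene by values that did not overlap, except that *vha-4* and *vha-2* overlapped with the sector centring described below. *vha-2* and *vha-5* differed by 0.43 ± 0.17, with *vha-2* higher on all 3 arrays. Although not neighbours in this order, *vha-2* and *unc-32* overlapped. They differed by 0.72 ± 0.63, and by 0.03 in prep 1. From *vha-5* through *vha-1* and *vha-7* to *unc-32* neighbours did overlap. They differed by 0.07 ± 0.24, 0.11 ± 0.08 and 0.12 ± 0.69. Although their ranges overlapped, *vha-1* exceeded *vha-7* on all 3 arrays, by 0.10, 0.03 and 0.19. *vha-5* also exceeded *vha-7* on all 3, by 0.43, 0.06 and 0.05. The other pairs among these 4 genes changed order between arrays.

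Prep 2 held the highest value for 6 of the 7 V0 genes, and for 42.1% of all features. Ratios were spread more widely in prep 2, with an SD of 0.867 over all probes, than in preps 1 and 3, with 0.808 and 0.782. Part of the array-wide pattern followed the place of probes in the order of identifiers, in runs of consecutive probes (sectors) inferred from these data. The *vha-4* probe and the first *vha-6* probe share a sector whose median was -0.07, 0.60 and 0.21 in preps 1, 2 and 3, and the second *vha-6* probe lies in one with -0.14, 0.31 and 0.19. With each sector centred on its own median, *vha-6* was at 2.13, 2.57 and 1.75, and *vha-4* at 1.15, 0.94 and 0.87. Prep 2 was then highest for 5 of the 7 genes, *vha-4* no longer among them.

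Sector centring narrowed the step between *vha-4* and *vha-2*. *vha-4* had a mean of 0.99 ± 0.14 with it and *vha-2* one of 0.90 ± 0.24, with *vha-2* at 0.95, 1.10 and 0.64. Their values then overlapped, and prep 2 was higher for *vha-2* than for *vha-4*. *vha-1* was at 0.40 ± 0.06, and *vha-6* stayed the highest on all arrays.

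**Figure D2:**
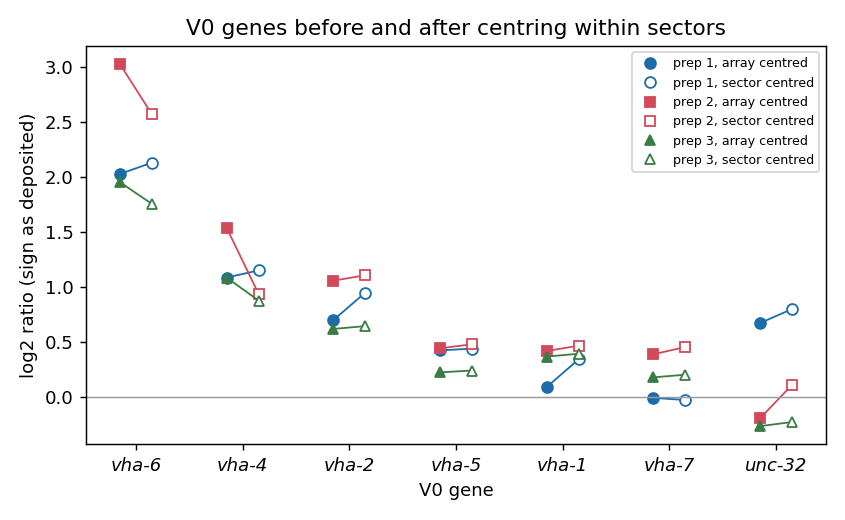
Log2 ratios (vertical axis, sign as deposited) of the 7 V0 genes with each array centred on its median (filled) and with each sector of consecutive probes centred on its own (open), joined for each prep. The prep 2 value of *vha-4* moves from 1.54 to 0.94 and that of *vha-6* from 3.03 to 2.57, while *vha-5* and *vha-7* hardly move.

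*vha-1* and *vha-2* are next to each other on chromosome III in the RefSeq gene table, while *vha-4* and *vha-6* lie on II, *vha-5* and *vha-7* on IV, and *unc-32* on III. *vha-3* lies on IV beside *vha-11*, a V1 gene, and neither had a listed probe. The flanking genes, given without regard to strand, had mean ratios between -0.53 and 0.35 beside the 3 highest V0 genes, *vha-1* aside. *C05D12.5* and *VW02B12L.2*, beside *vha-6*, were at -0.53 ± 0.10 and 0.35 ± 0.40. *T01H3.2* and *T01H3.5*, beside *vha-4*, were at -0.11 ± 0.22 and 0.20 ± 0.04. On the outer sides of the *vha-1* and *vha-2* pair, *sqv-3*, a gene of chondroitin synthesis, was at -0.46 ± 0.14 and *R10E11.6* at -0.14 ± 0.38.

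Of 3 other genes associated with V0, 2 were positive past the threshold, where 13.5% of all features were. *vha-19*, for an accessory subunit related to Ac45, had 1.58, 2.55 and 1.44, a mean of 1.86 ± 0.61 (limma adjusted p = 0.000136). *vha-20*, related to the prorenin receptor, had 1.22, 1.28 and 1.12, a mean of 1.21 ± 0.08 (limma adjusted p = 0.00046). *vha-17*, for the small e subunit, had 0.40, -0.03 and 0.57, and its mean of 0.31 ± 0.31 did not pass (limma adjusted p = 0.286).

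Genes of the V1 sector were mostly positive. Of 10 V1 genes 8 had a value, with a median of 0.94. Past the threshold 6 were positive and 1 was negative, beside 13.5% and 13.6% of all features. The negative count is near that share. The highest were *vha-12* and *vha-13*, for the B and A subunits of the catalytic head, at 2.12 ± 0.25 and 1.78 ± 0.29. *vha-14* (D, the rotor shaft) was at 1.38 ± 0.78, *vha-8* (E) at 1.00 ± 0.26, *vha-15* (H) at 0.88 ± 0.19 and *vha-10* (G) at 0.75 ± 0.24. The call of *vha-10* was lost when prep 2 or when prep 3 was left out. *vha-9* (F) was at 0.38 ± 0.51 (limma adjusted p = 0.247).

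One V1 gene was unlike its paralogue. *vha-18*, the other H gene, had -1.20, -1.36 and -1.92, a mean of -1.49 ± 0.38 (limma adjusted p = 0.000234), opposite in sign to *vha-15*. No gene of V0 was negative on all 3 arrays, beside 1 of the 8 V1 genes and 5218 of all 19075 features. By array the medians of V1 were 0.76, 0.97 and 1.02, and those of V0 were 0.67, 0.44 and 0.36. The V0 median of prep 1 was the value of *unc-32*, which was negative in preps 2 and 3 with each array centred on its median. The fall of these medians is thus not that of the single genes, as 6 of the 7 were highest in prep 2. The difference between the sectors was not tested, since V0 was picked with these values known and each median depends on which paralogues are counted. The V0 median also leaves out the 3 other V0-associated genes above, *vha-17*, *vha-19* and *vha-20*.

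**Figure D3:**
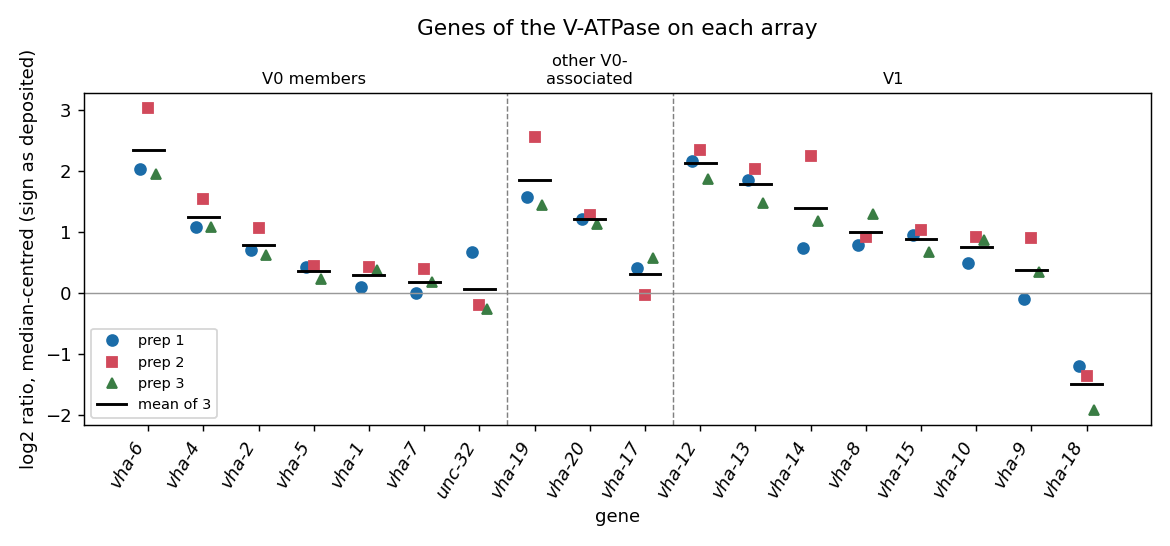
Centred log2 ratios (vertical axis, sign as deposited) of the V0 genes, 3 other V0-associated genes and 8 V1 genes; coloured points are the 3 preps and black bars their means. *vha-6*, *vha-12*, *vha-19* and *vha-13* reach means of 1.78 to 2.34, and *vha-18* is the gene with all 3 values below 0.

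Of 14 lysosome genes 12 had a value, 1 was positive and 2 were negative past the threshold, beside 13.5% and 13.6% of all features, and the median was -0.06. Both counts are near those shares and are not a result about the list. *lmp-1*, a lysosomal membrane protein gene, was the highest at 0.97 ± 0.29 and *nuc-1*, a lysosomal DNase gene, the lowest at -1.69 ± 0.69. Without prep 3 there were 3 positive lysosome genes, and 2 under 4 of the alternatives with all preps. At an unadjusted p under 0.05 in limma 4 of the 12 were positive, beside 3555 of all 19075 features, and 2 were negative, beside 3442. Of 10 genes of the TORC1 pathway, which senses amino acids at the lysosome through the pump, 7 had a value and 1 was negative past the threshold. That count is near the 13.6% of all features and is not a result about the list. The negative gene was *nprl-3* at -0.58 ± 0.26, a call lost when any of the preps was left out and with centring on the density peak. *daf-15*, the Raptor gene, was the highest at 0.48 ± 0.66.

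Of 8 genes of proton-coupled transport 4 had a value, and 2 were positive past the threshold, where 13.5% of all features were. The 2 positive ones are known from the apical membrane of the intestine, as is *vha-6*. The peptide transporter gene *pept-1* had 2.44, 2.42 and 2.30, a mean of 2.38 ± 0.08 (limma adjusted p = 3.98e-06), and the sodium-proton exchanger gene *nhx-2* was at 1.63 ± 0.32 (limma adjusted p = 0.000103). The lowest was *smf-1*, a metal transporter gene, at -0.28 ± 0.20. Of 4 genes of assembly and regulation 2 had a value, and neither passed. *rbc-1*, the rabconnectin gene, was at 0.54 ± 0.24 (limma adjusted p = 0.0558, and past the threshold without prep 2, with sector centring, with quantile normalization and with array weights), and *hlh-30*, the worm TFEB gene, was at -0.27 ± 0.01.

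Of 10 intestinal marker genes 8 were positive past the threshold, where 13.5% of all features were, with medians of 1.31, 1.504 and 1.26 in preps 1, 2 and 3, from *elt-7*, a GATA factor gene, at 0.08 ± 0.34 to the brush border actin gene *act-5* at 2.49 ± 0.61. *act-5* had 2.30, 3.17 and 2.00, beside 2.03, 3.03 and 1.95 for *vha-6*. Of 10 epidermal and seam genes with a value 6 were positive, with medians of 1.36, 1.57 and 0.42, from *ceh-16* at -0.18 ± 0.05 to *nhr-73* at 3.27 ± 0.40. Without prep 2 there were 3.

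Of 11 excretory cell genes with a value 1 was positive and 2 were negative, counts near the 13.5% and 13.6% of all features, with medians of -0.12, 0.06 and 0.27. They ran from *ifa-4*, an intermediate filament gene, at -0.91 ± 0.16 to *pgp-12*, a canal cell transporter gene, at 1.21 ± 0.30. Without prep 2, with quantile normalization or with array weights there were 2 positive ones, and without prep 1 or without prep 3 there was 1 negative one. Of 14 neuronal genes 3 were negative, where 13.6% of all features were, with medians of -0.37, -0.17 and -0.08, from *ida-1* at -1.04 ± 0.61 to *unc-10* at 0.32 ± 0.06, and there were 0 negative ones in limma without prep 1 (with 1 positive) or with centring on the density peak. At an unadjusted p under 0.05 in limma with all preps there were 5 negative ones, beside 3442 of all 19075 features. The part of any tissue in the ratios of the V0 genes was not tested.

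**Figure D4:**
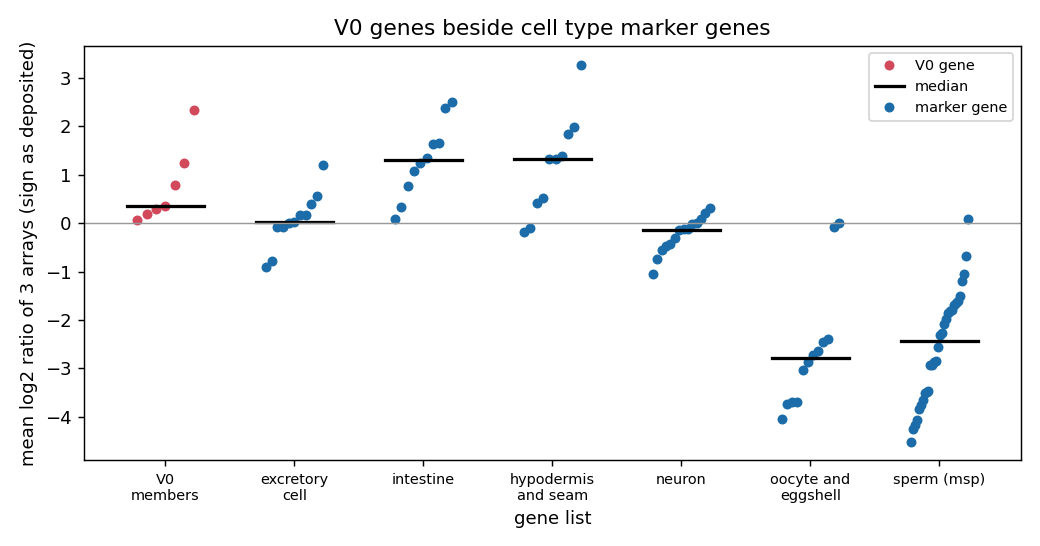
Mean log2 ratio over 3 arrays (vertical axis, sign as deposited) of each V0 gene (red) and each marker gene (blue) by list, with a black bar at the median of the list. The intestinal and the epidermal lists have medians near 1.3, the excretory cell and neuronal lists lie near 0, and the oocyte and sperm lists lie well below it.

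The named genes nearest to the V0 median over the 3 arrays, 0.67, 0.44 and 0.36, were *madf-5*, *nhx-5*, *cars-2*, *F46B6.6* and *znf-207*. Nearness is the Euclidean distance over 3 array values, which was 0.06 for *madf-5* and 0.09 for *znf-207*. Their means ran from 0.46 to 0.52. With 3 arrays this likeness says little beyond a similar ratio, and the prep 1 median was the value of *unc-32* alone.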

How the data were processed

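The values are log2 ratios between the channels, as deposited, and the steps the authors took before (scanning, background, dyes, normalization) are not given in the sources consulted. The base was read from the values: undone with base 2, 97.0% to 98.3% fall on whole thousandths (tolerance 0.001 of one), and with base e at most 0.403%. Of 20000 probes 15655 had 1 symbol in the platform annotation, which is old. Symbols were updated through Entrez identifiers with the RefSeq table of WBcel235, and 15569 matched.

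Each array was centred on its median over all its probes, probes of a gene were averaged, and features needed a value on all 3 arrays. The mean of each feature was set against 0 in limma 3.58.1 under R 4.3.3 (lmFit, intercept only, eBayes, two-sided, Benjamini-Hochberg over 19075 features, threshold 0.05). The prior holds 9.23 degrees of freedom and the arrays 2. Spread of the reference RNA does not enter the test. The fit was also run on simulated data with independent normal noise and no sector pattern. Such a run cannot show whether the calls made here are sound. Figures were drawn with matplotlib 3.10.9.

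The members, gene lists, tests and alternatives were chosen with earlier results of these data known. The rule for named genes took all V0 and V1 genes, the 3 other V0-associated genes, the highest and lowest gene of each further list, and the 5 genes nearest the V0 median. *pept-1* and *nhx-2* belong to both the intestinal and the transport list, and *act-5*, *nprl-3* and *nhx-2* are named as set beside a V0 gene or as the genes behind a count. Strand was not in the gene table, so flanking genes are given on both sides, outside the rule. Each array title carries its own date, so batch and prep cannot be told apart. No sequences are shown.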

Additional observations from a re-analysis of the deposited data

How the results depend on the processing

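The results were recomputed under 13 alternatives: other centrings and scalings, features with at least 2 arrays, single probes, array weights, robust moderation and leaving out each prep. The 3 positive calls in V0 were kept by the same genes under all 13, and each V0 gene's mean moved by less than its SD. For the means, part of this was fixed in advance. Leaving out 1 of 3 preps cannot move a mean by more than its SD. Features with at least 2 arrays, single probes and robust moderation left these means unchanged. Only the other centrings and scalings and the array weights bear on it. *vha-6* ranged from 1.99 to 2.53, *vha-4* from 0.99 to 1.31, *vha-2* from 0.66 to 0.90 and *unc-32* from -0.23 to 0.24. The V0 median was 0.57 with every probe on its own, where *vha-6* counts with 2 probes. The V1 median ranged from 0.88 to 1.00. Of the values of other lists, of single genes outside V0 and of all features, 570 stayed and 28 moved. With arrays centred on the peak of their density, 1629 features were negative past the threshold instead of 2602, and 1793 instead of 2569 were positive. With a prep left out, positive features numbered 1748 to 2252 and negative ones 1820 to 2161, and p-values then rest on 2 arrays. Signal over background was not used here. Dixon's test for a sample far from the others needs at least 4 samples and was not run.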
